A study of Homo sapiens with 4 samples.

Results

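The ribosomal S6 kinase and mTOR genes described here are 10 protein-coding genes, taken by symbol from the 60617 gene entries of a count table of SKNMC cells, and all 10 were matched to an Ensembl identifier. They comprise RPS6KA1, RPS6KA2, RPS6KA3 and RPS6KA6, which encode the p90 ribosomal S6 kinases (RSK), RPS6KA4 and RPS6KA5, which encode the mitogen- and stress-activated kinases (MSK), RPS6KB1 and RPS6KB2, which encode the p70 S6 kinases, and MTOR and DEPTOR. SKNMC is an established line of human Ewing sarcoma, a tumour driven by a chimeric protein that joins EWSR1 to an ETS factor, most often FLI1. RNA-seq libraries came from SKNMC cells treated with the curaxin CBL0137 at 1 µM for 24 h (n = 2) and from SKNMC cells given its vehicle, DMSO, for 24 h (n = 2). Curaxins intercalate into DNA and hold the histone chaperone FACT on chromatin. The series asks which transcripts differ in SKNMC cells after inhibition of FACT. Whether the 2 libraries of each group represent separate cultures is not stated in the labels, so the errors cover the differences between these libraries and may be technical.

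RSK enzymes are serine/threonine kinases switched on by ERK and by PDK1, and MSK enzymes answer to ERK and to p38. The p70 S6 kinases are switched on by mTOR complex 1 (mTORC1) and PDK1. The RSK and p70 branches meet on the ribosomal protein S6 and on other parts of the translation machinery, while MSK phosphorylates CREB and histone H3 in the nucleus. In Ewing sarcoma cells, signalling from the insulin-like growth factor receptor feeds both the ERK and the mTOR branch.

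In the CBL0137 libraries 20767817 and 21061892 reads were counted in genes, against 20086664 and 19625517 in the DMSO libraries. Reads outside annotated genes were 10.3% and 10.2% of counted reads with CBL0137, against 8.52% and 8.82% with DMSO. All 9 markers of the Ewing sarcoma line that were examined had at least 1 CPM (counts per 1000000 reads in the tested genes, with library sizes scaled by TMM factors) in every library. They summed to 1555 and 1660 CPM with CBL0137, against 2630 and 2622 CPM with DMSO, and 4 of them, CD99, NR0B1, CCND1 and PRKCB, were called lower. CCND1 differed most in CPM, at 551 ± 33.3 with CBL0137 and 1151 ± 10.1 with DMSO (SD, n = 2 each). The others were not called, with log2 fold changes of 0.35 for LIPI, 0.23 for NKX2-2, 0.02 for FLI1, -0.18 for EWSR1 and -0.24 for STEAP1. Markers of other cell types differed between the groups in summed level. The 5 epithelial markers summed to 114 and 115 CPM with CBL0137, against 51.5 and 52.0 CPM with DMSO. Most of this sum came from KRT18, at 99.3 and 97.3 CPM with CBL0137, against 45.8 and 46.6 CPM with DMSO. KRT18 was called higher, as were EPCAM, KRT8 and KRT19 at lower levels, and CDH1 was not tested. The 4 fibroblast markers summed to 603 and 572 CPM with CBL0137, against 317 and 314 CPM with DMSO. The fibroblast sum followed COL1A1, at 456 ± 21.0 CPM with CBL0137 and 123 ± 5.60 CPM with DMSO (SD, n = 2 each), while DCN (109 ± 2.88 with CBL0137, 157 ± 0.0920 with DMSO) and LUM (20.3 ± 2.23 with CBL0137, 35.3 ± 3.98 with DMSO) had lower means with CBL0137. The 5 leukocyte markers summed to 108 and 124 CPM with CBL0137 and to 163 and 163 CPM with DMSO, nearly all of it from PTPRC, while CD3E and CD68 had at most 1 read in any library. The 3 endothelial markers summed to 4.05 and 4.79 CPM with CBL0137 and to 2.80 and 2.42 CPM with DMSO. None of the markers of the line or of other cell types was at 0 in all 4 libraries, and the part of any marker in the values below was not tested. In bulk RNA, fewer cells of a type and less RNA per cell cannot be told apart.

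Of the 10 genes, 9 passed the low-count filter, and 2 of these 9 were called, RPS6KA2 lower and RPS6KA1 higher with CBL0137. Calls needed a Benjamini-Hochberg adjusted p under 0.05 in the edgeR quasi-likelihood fit over all 17374 tested genes and a fold above 1.5, which is 0.58 on the log2 scale. Over all tested genes 33.4% were called in either direction, 18.2% higher and 15.1% lower. The genes were chosen by symbol, but with the fold changes of these counts already known, RPS6KA2 having been seen among the lowest, so their counts and calls are a description and carry no test. For that reason no p-value is given for them. Without the fold limit, 7 of the 9 had an adjusted p under 0.05, against 61.7% of all tested genes. In all 9 the CPM ranges of the groups did not overlap, as in 79.9% of all tested genes.

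**Figure D1:**
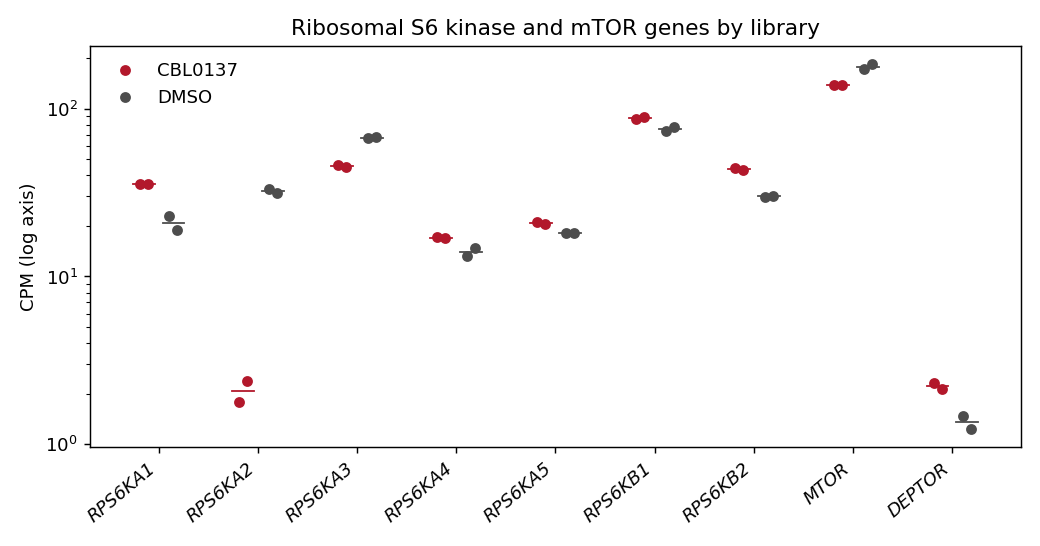
CPM of the 9 tested genes in each library on a log axis, with 2 CBL0137 libraries (red, left) and 2 DMSO libraries (grey, right) per gene and a line at each group mean. RPS6KA2 stood at 1.78 and 2.39 CPM with CBL0137, against 33.2 and 31.6 CPM with DMSO. RPS6KA6 had 0 reads in every library and is not drawn.

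RPS6KA2 encodes RSK3, the RSK enzyme with the longest gene (ENSG00000071242, GRCh37 chromosome 6, 166822852 to 167319939, minus strand, a span of 497.1 kb). It had 39 and 53 reads in the CBL0137 libraries, against 628 and 589 reads in the DMSO libraries. Both CBL0137 libraries lay far under both DMSO libraries. The mean was 2.08 ± 0.437 CPM with CBL0137 and 32.4 ± 1.10 CPM with DMSO (SD, n = 2 each), a log2 fold change of -3.95 (SE 0.14). Only 34 of the 17374 tested genes had a lower log2 fold change. Leaving out single libraries gave values between -4.19 and -3.76.

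The deposited FPKM values of RPS6KA2, which scale reads by gene length and depth, differed between the groups by much more. They were 0.00737 and 0.0124 FPKM with CBL0137, against 3.63 and 3.53 FPKM with DMSO. The CBL0137 mean was thus 0.0643 of the DMSO mean in CPM and 0.00276 of it in FPKM. Each unit of FPKM corresponded to 241 and 193 CPM in the CBL0137 libraries, against 9.15 and 8.97 CPM in the DMSO libraries, whereas for RPS6KA1 the same quotient lay between 4.503 and 4.676 in all 4 libraries. The FPKM of RPS6KA2 is therefore not a rescaling of its read count by 1 fixed length. On the log2(FPKM + 1) scale its difference was -2.18 and on the log2(FPKM + 0.1) scale -5.07. Both fits called RPS6KA2 lower.

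Start windows were read for all genes of the group but DEPTOR, and among these genes RPS6KA2 has the most listed starts. The RefSeq windows used here give it 3, and starts 2 and 3 lie 235.3 and 317.8 kb downstream of start 1. Gene-level counts do not say which of them the reads came from. The windows from 250 bases before to 50 bases after each start are printed here because they are the candidate promoters of the gene with the lowest log2 fold change of the group, with start 1 of RPS6KA1, the close relative called higher, for comparison. The sequences are those of RefSeq on GRCh38.p14, 5′ to 3′ on the strand of the gene. Capitals mark GGAA on either strand (TTCC on the printed one), the core bound by ETS factors such as FLI1.
RPS6KA2 start 1 (chr6:166862476-166862775, minus strand): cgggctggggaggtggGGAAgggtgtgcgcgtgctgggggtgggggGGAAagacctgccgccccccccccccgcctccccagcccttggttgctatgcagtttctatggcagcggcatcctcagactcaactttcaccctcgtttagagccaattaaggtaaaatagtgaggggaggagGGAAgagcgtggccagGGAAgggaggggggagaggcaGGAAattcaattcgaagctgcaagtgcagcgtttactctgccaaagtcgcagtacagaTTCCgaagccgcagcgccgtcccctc
RPS6KA2 start 2 (chr6:166627202-166627501, minus strand): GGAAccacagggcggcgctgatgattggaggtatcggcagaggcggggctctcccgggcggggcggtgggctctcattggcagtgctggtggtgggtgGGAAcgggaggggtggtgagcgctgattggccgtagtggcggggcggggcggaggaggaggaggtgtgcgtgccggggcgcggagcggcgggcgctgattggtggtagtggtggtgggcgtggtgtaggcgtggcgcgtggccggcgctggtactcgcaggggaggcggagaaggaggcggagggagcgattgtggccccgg
RPS6KA2 start 3 (chr6:166544641-166544940, minus strand): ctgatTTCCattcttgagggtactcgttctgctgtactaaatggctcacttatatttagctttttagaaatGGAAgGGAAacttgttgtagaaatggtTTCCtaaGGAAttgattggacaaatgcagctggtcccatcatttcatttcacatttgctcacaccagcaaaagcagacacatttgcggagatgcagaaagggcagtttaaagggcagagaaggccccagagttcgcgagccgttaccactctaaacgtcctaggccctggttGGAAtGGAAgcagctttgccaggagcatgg
RPS6KA1 start 1 (chr1:26529511-26529810, plus strand): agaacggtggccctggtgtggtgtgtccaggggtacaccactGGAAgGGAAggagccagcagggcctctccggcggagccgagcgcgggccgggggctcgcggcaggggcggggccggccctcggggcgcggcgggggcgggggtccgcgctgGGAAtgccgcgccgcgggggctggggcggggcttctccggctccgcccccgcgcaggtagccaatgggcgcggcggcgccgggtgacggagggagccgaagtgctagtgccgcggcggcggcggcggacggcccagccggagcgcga

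The 3 windows of RPS6KA2 held 6, 2 and 7 matches to GGAA on either strand, in the order of the starts, and that of start 1 of RPS6KA1 held 3. Start 2 of RPS6KA1 held 4, the window of RPS6KB2 and both windows of RPS6KA3 held 6 each, and the other windows read from the group held 1 to 4. The windows of RPS6KA3 overlap each other, and whether these counts go with the log2 fold changes was not tested. Over all 35116 RefSeq windows of the same length the median was 3, and 16.1% had 6 or more and 8.29% had 7 or more. The windows of RPS6KA2 also differed in base composition, with 15, 31 and 6 CpG and 61.3%, 72.3% and 45.7% GC. Start 1 of RPS6KA1 had 44 CpG and 80.0% GC, and start 2 of that gene had 4 CpG and 59.7% GC. The median window had 14 CpG and 58.7% GC. The double core GGAAGGAA, in 3.67% of all windows on either strand, was in none of the 4 windows printed above. The same was true of the E-box CACGTG, in 7.26% of all windows, and of TGACGTCA, the element bound by CREB, in 1.85%. CCAAT on either strand, in 34.6% of all windows, was found 1, 4 and 1 times in the windows of RPS6KA2 and once in that of start 1 of RPS6KA1. These are matches of letters and say nothing of binding.

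Several annotated genes lie within the span of RPS6KA2. Its intronic transcript RPS6KA2-IT1, on the same strand, had 0 and 0 reads with CBL0137, against 13 and 8 reads with DMSO. These few reads cannot be told apart from reads of unspliced RPS6KA2 RNA. RAMACL, a coding gene on the same strand inside RPS6KA2, had 70 and 61 reads with CBL0137, against 35 and 43 reads with DMSO. RPS6KA2-AS1, on the opposite strand, had 2 and 1 reads with CBL0137 and 0 and 1 reads with DMSO. None of these 3 shares exon sequence with RPS6KA2. A single unnamed coding gene on the same strand did, over 0.73% of the exon sequence, and it had 0 reads in every library.

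RPS6KA1 encodes RSK1 (ENSG00000117676, chromosome 1, 26856252 to 26901521, plus strand). It had 781 and 787 reads with CBL0137, against 431 and 351 reads with DMSO, and the groups did not overlap. The mean was 35.5 ± 0.00236 CPM with CBL0137 and 20.8 ± 2.78 CPM with DMSO (SD, n = 2 each), with nearly all of the spread in the DMSO pair. The log2 fold change was 0.77 (SE 0.09), with values between 0.63 and 0.93 over 14 alternatives. Its FPKM values, 7.83 and 7.89 with CBL0137 against 4.87 and 4.03 with DMSO, gave nearly the same ratio of means, 1.77, as the CPM values, 1.71.

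RPS6KA3 encodes RSK2, whose loss causes Coffin-Lowry syndrome (ENSG00000177189, chromosome X, 20168029 to 20285637, minus strand). It had 46.4 and 44.8 CPM with CBL0137, against 66.7 and 67.4 CPM with DMSO. Its log2 fold change of -0.56 (SE 0.07) lay just inside the fold limit, so it was not called. It kept the negative sign in all 14 alternatives, between -0.58 and -0.36. RPS6KA6 encodes RSK4 (ENSG00000072133, chromosome X, 83313354 to 83461364, minus strand). It had 0 reads in all 4 libraries, which allows levels of up to 0.137 and 0.135 CPM with CBL0137 and 0.159 and 0.161 CPM with DMSO (3 reads, counting error only).

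The MSK genes had smaller log2 fold changes. RPS6KA4 encodes MSK2 (ENSG00000162302, chromosome 11, 64126620 to 64139687, plus strand) and had 17.1 and 16.9 CPM with CBL0137, against 13.2 and 14.9 CPM with DMSO, a log2 fold change of 0.28 (SE 0.11). RPS6KA5 encodes MSK1 (ENSG00000100784, chromosome 14, 91314205 to 91526985, minus strand) and had 21.0 and 20.6 CPM with CBL0137, against 18.1 and 18.1 CPM with DMSO, a log2 fold change of 0.20 (SE 0.10). Neither was called on counts. The deposited FPKM values of RPS6KA5 were 2.99 and 2.12 with CBL0137, against 1.14 and 1.45 with DMSO, and with log2(FPKM + 0.1) it was called higher at 0.92. The annotation gives RPS6KA5 an exon length of 27982 bases over all its transcripts, the longest of the 10 genes, and 1.10% of it overlaps DGLUCY on the opposite strand.

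RPS6KB2 encodes S6K2 (ENSG00000175634, chromosome 11, 67195931 to 67202872, plus strand). It had 976 and 951 reads with CBL0137, against 566 and 561 reads with DMSO. In CPM these were 44.4 and 43.0 with CBL0137 and 29.9 and 30.1 with DMSO, and the 2 libraries of each group lay close together. The log2 fold change was 0.54 (SE 0.08), under the fold limit, and it passed that limit with upper-quartile factors (0.61) and with library size alone (0.70). Of its exon sequence 8.08% overlaps RPS6KB2-AS1 on the opposite strand, which had 0 reads in every library. RPS6KB1 encodes S6K1, the classical p70 S6 kinase (ENSG00000108443, chromosome 17, 57970407 to 58027935, plus strand). It had 86.3 and 89.3 CPM with CBL0137, against 73.3 and 77.8 CPM with DMSO, a log2 fold change of 0.22 (SE 0.06) that was not called.

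MTOR, the gene of the kinase shared by mTORC1 and mTORC2 (ENSG00000198793, chromosome 1, 11166592 to 11322613, minus strand), had 139 and 138 CPM with CBL0137, against 172 and 184 CPM with DMSO. Its log2 fold change was -0.36 (SE 0.05), and its sign was negative in all 14 alternatives, between -0.43 and -0.20. It was called in none of them at the fold limit of 1.5. DEPTOR, which encodes an mTOR-binding protein that restrains both complexes (ENSG00000155792, chromosome 8, 120885957 to 121063157, plus strand), had few reads, as RPS6KA2 did with CBL0137. It had 51 and 47 reads with CBL0137, against 28 and 23 reads with DMSO, or 2.32 and 2.12 CPM with CBL0137 and 1.48 and 1.24 CPM with DMSO. Its log2 fold change of 0.71 was past the fold limit but had the largest SE of the 9 tested genes, 0.33, and it was not called. It was called with upper-quartile factors (0.77), with library size alone (0.87) and with a filter of 1 CPM in 2 libraries (0.72). Its FPKM values were 0.992 and 0.742 with CBL0137, against 0.482 and 0.0294 with DMSO. The 2 DMSO libraries thus differed far more in FPKM than in reads.

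**Figure D2:**
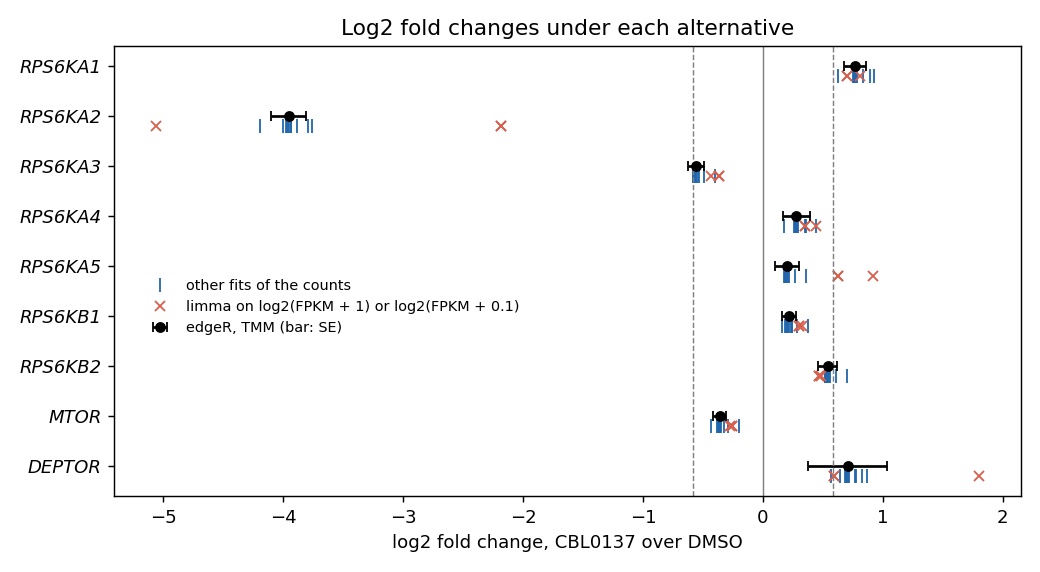
Log2 fold change, CBL0137 over DMSO, of the 9 tested genes. Black points with SE bars are the edgeR fit with TMM factors, blue ticks other fits of the counts, red crosses limma fits of the deposited FPKM values, and dashed lines the fold limit of 1.5. No gene changes sign, and the crosses of RPS6KA2 lie at -5.07 and -2.18 around its -3.95.

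How genes are scaled bears on these calls. With library size alone the median over all genes moved up by 0.16 on the log2 scale, and 4 of the 9 were called (RPS6KA1, RPS6KB2 and DEPTOR higher, RPS6KA2 lower), against 34.6% of all genes. With upper-quartile factors the same 4 genes were called, against 33.5% of all genes. The share of all calls that were higher was 54.6% with TMM factors (3166 higher, 2632 lower) and 68.8% with library size alone (4138 higher, 1877 lower). The sign of each of the 9 log2 fold changes was the same under all 4 scalings tried.

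Levels of different genes were compared as CPM per kilobase of annotated exon. With CBL0137 the order was RPS6KB1 (11.4 ± 0.275), MTOR (10.4 ± 0.0783), RPS6KB2 (7.51 ± 0.179), RPS6KA1 (6.04 ± 0.000397), RPS6KA3 (4.65 ± 0.117), RPS6KA4 (4.47 ± 0.0329), DEPTOR (0.846 ± 0.0534), RPS6KA5 (0.744 ± 0.00866) and RPS6KA2 (0.253 ± 0.0530), as mean ± SD, n = 2. No neighbours in that order overlapped in range. With DMSO the order was MTOR (13.3 ± 0.665), RPS6KB1 (9.81 ± 0.415), RPS6KA3 (6.84 ± 0.0472), RPS6KB2 (5.16 ± 0.0265), RPS6KA2 (3.93 ± 0.133), RPS6KA4 (3.68 ± 0.319), RPS6KA1 (3.54 ± 0.472), RPS6KA5 (0.647 ± 0.000697) and DEPTOR (0.517 ± 0.0658). Here RPS6KA2 overlapped RPS6KA4, and RPS6KA4 overlapped RPS6KA1. RPS6KA2, RPS6KA4 and RPS6KA1 thus have no firm order with DMSO, while RPS6KA2 was the lowest detected gene with CBL0137. The order depended on the length used. In deposited FPKM, RPS6KB2 was the highest of the 10 genes in both groups, at 29.2 ± 0.122 with CBL0137 and 20.9 ± 0.451 with DMSO.

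The make-up of the RSK transcripts differed between the groups, on the same scale of CPM per kilobase. RPS6KA1 made up 55.0% and 55.4% of the RSK sum in the CBL0137 libraries, against 26.3% and 23.0% in the DMSO libraries. RPS6KA2 made up 1.96% and 2.66% with CBL0137, against 27.4% and 27.6% with DMSO. RPS6KA3 held 43.1% and 41.9% with CBL0137 and 46.3% and 49.4% with DMSO. The leading RSK gene was thus RPS6KA1 in both CBL0137 libraries and RPS6KA3 in both DMSO libraries. The RSK sum itself was 10.99 and 10.9 with CBL0137, against 14.7 and 13.9 with DMSO, so the sum of the family differed much less than RPS6KA2 did. In deposited FPKM the shares of RPS6KA1 were 65.9% and 63.7% with CBL0137 and 34.7% and 29.7% with DMSO, with the same leading gene in each library.

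The MSK and p70 pairs kept more even shares. RPS6KA4 made up 85.7% and 85.8% of the MSK sum with CBL0137, against 84.2% and 85.8% with DMSO, ranges that overlap. In deposited FPKM its share was 57.2% and 65.5% with CBL0137, against 70.6% and 68.2% with DMSO. RPS6KB2 made up 40.5% and 38.9% of the p70 sum with CBL0137, against 35.1% and 33.9% with DMSO. In deposited FPKM it was instead the larger of the pair, with 68.3% and 67.0% with CBL0137 and 66.1% and 64.5% with DMSO. The p70 sum was 18.9 and 19.0 CPM per kilobase with CBL0137, against 14.7 and 15.3 with DMSO. With 2 samples against 2, the smallest p an exact two-sided permutation test can give is 0.333, so no p is given for these shares.

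**Figure D3:**
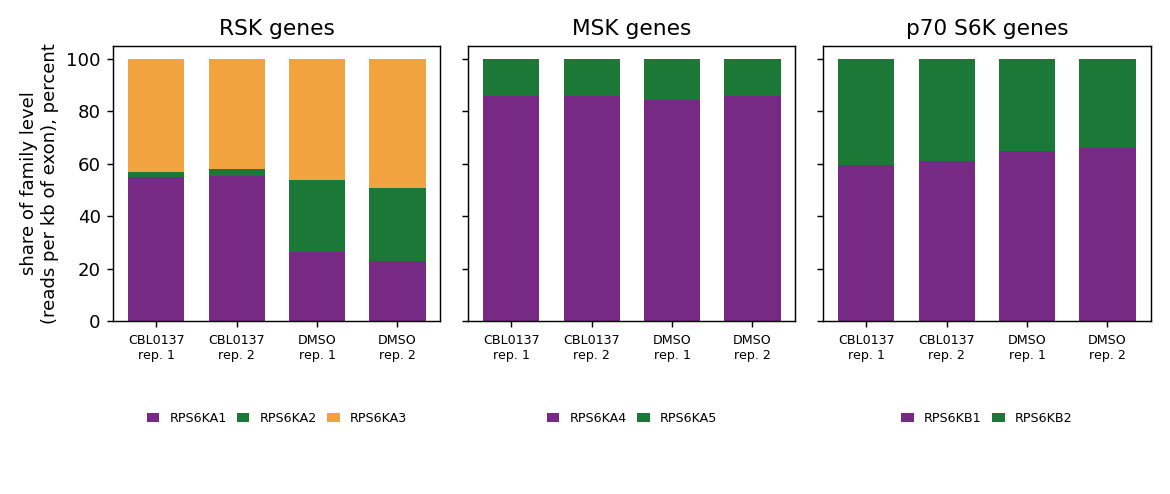
Share of each gene in the summed level (CPM per kilobase of exon, in percent) of its family, for each of the 2 CBL0137 libraries (left) and the 2 DMSO libraries (right) of a panel. RPS6KA2 makes up 1.96% and 2.66% of the RSK sum with CBL0137, against 27.4% and 27.6% with DMSO, and RPS6KA6, with 0 reads, has no share.

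The genes span very different lengths of genome, a property their choice did not use. RPS6KA2, RPS6KA3, RPS6KA5, MTOR and DEPTOR fall among the 2655 longest of the tested coding genes when these are divided by span into 5 groups (spans from 103.1 kb), and RPS6KB2, with 6.9 kb, among the 2656 shortest (up to 11 kb). In the longest group 12.1% of all tested coding genes were called higher and 21.4% lower with CBL0137, against 23.3% and 12.8% in the shortest. Of the 5 long genes, RPS6KA2, RPS6KA3 and MTOR had negative and RPS6KA5 and DEPTOR positive log2 fold changes. The part of gene span in these values was not tested.

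The other genes of the pathway were read from 6 lists, and 120 of them were tested. These lists too were chosen with results of these data known, so their calls are a description and no p-value is given. Of the 120 genes, 14 were called higher and 20 lower, so that 28.3% were called, against 33.4% of all tested genes. For the genes of these lists, rose and fell mean called higher and called lower. The shares to set beside each list below are 18.2% of all tested genes higher and 15.1% lower. With library size alone, 34.6% of all tested genes were called in either direction. Among the 9 other subunits and assembly factors of the mTOR complexes, 0 were called higher and 0 lower (median log2 fold change -0.07, against 0.01 over all genes). RICTOR, the scaffold of mTORC2, was at 101 ± 4.24 CPM with CBL0137 and 71.6 ± 4.47 CPM with DMSO (SD, n = 2 each), a log2 fold change of 0.50 that passed the fold limit with library size alone (0.66). MLST8, a subunit of both complexes, was at -0.48, PRR5L, an mTORC2 partner, at -0.35, and RPTOR, the scaffold of mTORC1, at -0.02.

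Of the 36 tested inputs to mTORC1, which are the lysosomal Rag, GATOR and TSC components and stress inhibitors, 5 rose and 7 fell (7 and 5 with library size alone), with a median of 0.16. DDIT4, which encodes a stress-induced inhibitor of mTORC1, fell to 11.6 ± 0.833 CPM with CBL0137, against 42.7 ± 2.26 CPM with DMSO, with -1.88 on the log2 scale (SE 0.10). The leucine sensor gene SESN2 fell by 1.05 on the log2 scale (SE 0.06), while its relatives SESN1 (0.71) and SESN3 (2.23, SE 0.39) rose. SESN3 had few reads, 76 and 46 with CBL0137, against 9 and 13 with DMSO. The Rag GTPase gene RRAGA rose by 1.07 (SE 0.07) and TSC2, whose product is phosphorylated by RSK, by 0.60 (SE 0.06). Among the GATOR genes, NPRL3 (-1.05), MIOS (-1.03) and SEH1L (-0.78) fell. The others, WDR24 (0.30), WDR59 (0.24), NPRL2 (-0.09), DEPDC5 (-0.22) and SEC13 (-0.27), were not called.

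Of the 18 tested substrates and effectors of mTORC1 and of the p70 S6 kinases, 3 rose and 7 fell (5 and 3 with library size alone), with a median of -0.06. EIF4EBP1, which encodes the translation repressor 4E-BP1, fell to 145 ± 14.4 CPM with CBL0137, against 720 ± 54.2 CPM with DMSO, with -2.31 on the log2 scale (SE 0.06). The adaptor genes IRS1 (-1.57) and GRB10 (-1.11) fell, as did RPS6 (-0.68), the gene of the protein after which these kinases are named. With library size alone the 3 genes called lower were EIF4EBP1, IRS1 and GRB10, and RPS6 was not called. EEF2K and PDCD4, which encode S6 kinase targets that slow elongation and initiation, rose by 0.78 (SE 0.07) and 0.76 (SE 0.07). The S6 kinase target EIF4B was at 0.02.

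Upstream of RSK and MSK, 2 of 18 genes rose and 1 fell (median -0.10, and 0.06 with library size alone). PEA15, whose product binds ERK and RSK2, fell by 1.27 (SE 0.08), and the p38 gene MAPK13 rose by 2.53 (SE 0.24) to 7.73 ± 0.139 CPM with CBL0137, against 1.33 ± 0.0152 CPM with DMSO. MAPK3 (0.03), an ERK gene, PDPK1 (0.00099), which encodes PDK1, and NRAS (-0.39) did not pass. Of the 20 RSK and MSK substrates 0 rose (2 with library size alone) and 1 fell, MITF at -1.12, with a median of -0.14. CREB1 stood at -0.57, just inside the fold limit, and was called lower in the DESeq2 fit (-0.59), when low counts were not filtered (-0.60), without CBL0137 replicate 2 (-0.59) and without DMSO replicate 1 (-0.65). YBX1 was at -0.50 and the histone H3.3 gene H3-3B at 0.46.

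Of 19 tested related kinases of the AGC group, 4 rose and 4 fell (4 and 3 with library size alone), with a median of -0.13. PRKCB, a protein kinase C gene, fell to 172 ± 3.16 CPM with CBL0137, against 391 ± 1.71 CPM with DMSO (-1.18, SE 0.05), and SGK1 fell by 1.11 (SE 0.13). SGK3 was called higher at 0.69 (SE 0.08), but not without DMSO replicate 1 (0.54), and 43.98% of its exon sequence is shared with a read-through gene on the same strand. AKT1 was at -0.22 and AKT2 at 0.30.

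**Figure D4:**
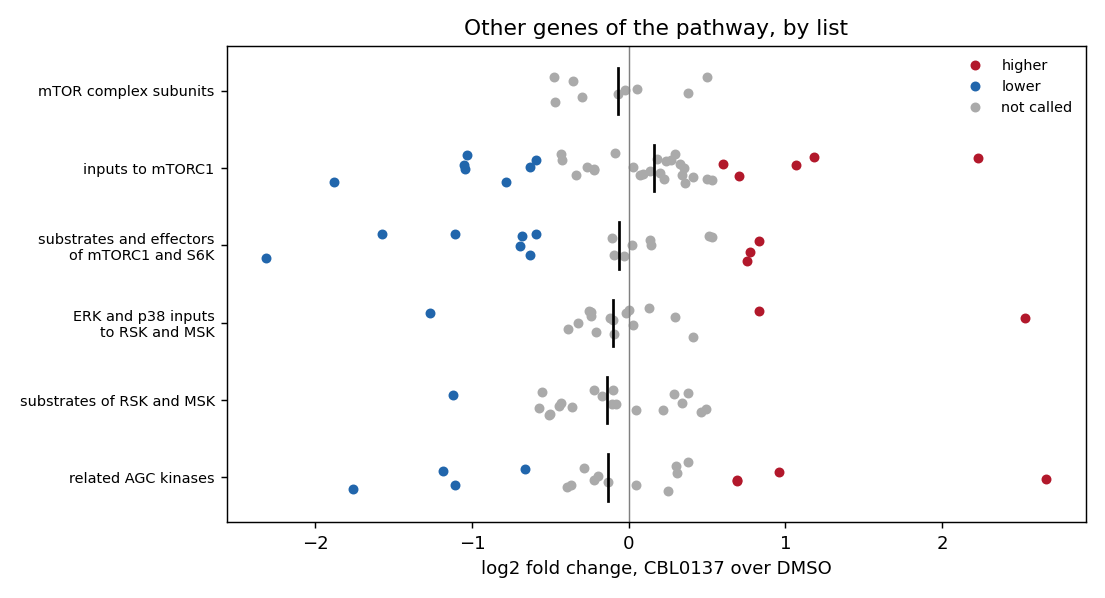
Log2 fold change, CBL0137 over DMSO, of the tested genes of 6 pathway lists without the 10 genes above. Each point is a gene, red for higher, blue for lower and grey for not called, and black bars are medians. The points of the mTOR complex subunits are all grey, and the lowest point, at -2.31, is EIF4EBP1.

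Over the 4 libraries, the 3 tested genes with the log2 CPM profile nearest to that of RPS6KA2, by Euclidean distance after centring each gene on its mean, were CMKLR2, MROH2A and SCN4A. MROH2A had 2.96 and 3.43 CPM with CBL0137, against 53.1 and 56.1 CPM with DMSO. CMKLR2 had 6 and 10 reads with CBL0137, against 134 and 127 reads with DMSO, and SCN4A 3 and 4 reads with CBL0137, against 84 and 79 reads with DMSO. With 2 groups of 2 libraries this likeness is mostly a like size of difference between the groups.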

How the data were processed

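RNA-seq of SKNMC cells given 1 µM CBL0137 or DMSO for 24 h was analysed, with 2 libraries per group, and groups and replicate numbers were read from the sample titles. Adapters were trimmed with Trim Galore and reads aligned to hg19 with HISAT2, per the series' design text. The deposited read counts per Ensembl gene were made by the authors with HTSeq 0.11.1. Not all deposited FPKM values follow from these counts, since CD68 had 0 reads in both DMSO libraries but 0.754 and 0.718 FPKM there. The authors computed the deposited FPKM values from reads, gene length and depth, with a tool that the sources used here do not name. Nor are the annotation release and the strand setting stated there. Reads of genes that overlap on opposite strands therefore cannot be told apart with certainty. Of the 10 genes, 6 share some exon sequence with another gene, and so do 8 of the other 21 named genes.

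Entries naming no gene (25.0% to 26.2% of counted reads per library) were left out. Counts were fitted over 17374 genes with edgeR 4.0.16 in R 4.3.3 (filterByExpr, TMM factors, quasi-likelihood test). CPM values use the reads in the tested genes of each library times its TMM factor. Standard errors were obtained as the size of the log2 fold change over the square root of the F statistic. DESeq2 1.42.0 on the counts and limma 3.58.1 on log2(FPKM + 1) or log2(FPKM + 0.1) were alternatives. Libraries of the same group were not duplicates (chi-square per degree of freedom 2.68 for CBL0137 and 2.95 for DMSO). Symbols came from a table of names, and GRCh37 positions and exon lengths from GENCODE release 44. Limits on a count of 0 cover counting error only.

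The 10 genes and the lists were chosen with earlier results of these data known. Named were the 10 genes, the 3 others with the smallest p of each list, and the 3 nearest in profile to RPS6KA2. Other genes were named after their values were seen, and some list members are not reported here.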

Additional observations from a re-analysis of the deposited data

How the results depend on the processing

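None of the 30 named genes that were tested changed sign in any of 14 alternatives, and 403 of 420 such values kept their side of the threshold. The exceptions not given above are SCN4A (-0.55 with log2(FPKM + 1), with or without a filter), H3-3B (0.62 with library size alone), and SGK3 (0.60) and SGK1 (-0.64) with log2(FPKM + 1) and no filter. Of the 10 genes, 2 were called, and 4 with upper-quartile factors or library size alone, 7 with the adjusted p alone and 1 with a fold above 2. A filter of 1 CPM in 2 libraries gave 3 calls, against 34.4% of all genes, and log2(FPKM + 0.1) gave 3, against 22.1%. Of all genes 5798 were called (33.4% of 17374 tested). With log2(FPKM + 1) 3591 were called (15.6% of 22969), and with that scale and no filter 2272 (5.88% of 38635). With the adjusted p alone the count was 10722 (61.7%), and with a fold above 2 it was 3206 (18.5%). Of the other pathway genes 34 were called, and 16 with log2(FPKM + 1) and no filter, 90 with the adjusted p alone and 17 with a fold above 2. The fold limits set these last counts by construction, and for the others the cause was not tested. Leaving out single libraries gave 5117 to 5549 calls over all genes, 28 to 37 among the other pathway genes and 2 to 2 among the 10. A lone library was then assumed to vary like the other group. With the replicate number as a block, 5741 genes were called over all, 34 of the other pathway genes and 2 of the 10. Deviations of same-numbered libraries had a correlation of 0.02, so the numbers were not taken to pair the samples. Among the 10 genes, depth limits RPS6KA6, with 0 reads in every library, and those with few reads, DEPTOR in both groups and RPS6KA2 with CBL0137.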
